A study of Homo sapiens with 6 samples.

Results

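A set of 9 genes of innate nucleic acid sensing and interferon regulatory factor (IRF) signalling were read out in RNA-seq of cells described as the melanoma line G361, with and without an shRNA against VprBP. The genes were chosen by name: the cytoplasmic RNA sensors IFIH1 and DHX58, the endosomal RNA sensor TLR3, the adaptor MAVS, the DNA sensor CGAS with its adaptor STING1, the kinase TBK1, and the transcription factors IRF3 and IRF7. These genes and the gene lists used below were chosen with earlier results of these data known. Shares and medians of the lists are therefore given as description. All 9 were among the 21494 genes of the count table. The 6 samples were 3 of cells with a control shRNA (Control sh, genotype WT in the labels) and 3 of cells with an shRNA to the coding region of VprBP, the product of DCAF1 (VprBP sh, DCAF1 Knockdown in the labels). Both shRNAs were delivered by lentivirus and the cells were selected in puromycin for 2 weeks, and neither group was given a nucleic acid or interferon stimulus in the sources used here. A single shRNA to DCAF1 was used, so that its effect on DCAF1 and any effect on other transcripts cannot be told apart, and separate cultures behind the replicates are not described.

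Cells detect viral or misplaced nucleic acid through receptors that differ in their ligand. IFIH1 and its relative RIG-I bind double-stranded RNA in the cytoplasm and signal through MAVS on mitochondria, DHX58 modulates both, and TLR3 binds double-stranded RNA in endosomes. CGAS binds DNA and makes a cyclic dinucleotide that activates STING1 on the endoplasmic reticulum. These routes meet at TBK1, which phosphorylates IRF3 and IRF7. The phosphorylated factors enter the nucleus and induce type I interferon, which acts through its receptor to raise interferon-stimulated genes, among them several of the sensors and IRF7 itself.

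IRF proteins bind the interferon-stimulated response element, whose core is TTTC, 2 bases of any kind and TTTC again, or its complement GAAA, 2 bases and GAAA. The core was searched on both strands, with overlapping matches kept, in RefSeq promoters (GRCh38.p14) that run from 250 bases before to 50 bases after the start of a gene. It was in 3.57% of 35116 promoters. Promoters of IFIH1, MAVS, TLR3 and TBK1 were in the table used, and those of CGAS, STING1, DHX58, IRF3 and IRF7 were not analysed here. IFIH1 had 3 matches, of which a pair overlaps, and TLR3 had 1 that begins 4 bases before its start, while these letters were not in the windows of MAVS and TBK1. The overlapping pair of IFIH1 is shown because IFIH1 is the sensor with the most matches, and it lies at chr2:162318808-162318863. The other sequences come from the RNA sensing relatives DDX60 (chr4:168318811-168318860) and DDX60L (chr4:168480543-168480592), and from the interferon-stimulated genes IFI6 (chr1:27672319-27672368), BST2 (chr19:17405725-17405780) and ISG20 (chr15:88638927-88638976), which are shown because they carry the core and moved in different directions: DDX60, DDX60L and IFI6 fell and BST2 and ISG20 rose in VprBP sh. ISG20 is on the plus strand and the others are on the minus strand. Each sequence runs 5′ to 3′ along its gene, and capitals mark the core.
IFIH1: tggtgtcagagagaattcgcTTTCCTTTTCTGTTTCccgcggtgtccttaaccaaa
DDX60: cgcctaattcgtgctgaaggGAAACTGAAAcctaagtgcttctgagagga
DDX60L: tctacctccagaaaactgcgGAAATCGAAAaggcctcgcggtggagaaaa
IFI6: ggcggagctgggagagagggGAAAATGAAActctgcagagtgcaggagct
BST2: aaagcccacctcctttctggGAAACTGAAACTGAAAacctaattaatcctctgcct
ISG20: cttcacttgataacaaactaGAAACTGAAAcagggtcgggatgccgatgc

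The values are estimated counts, with 18195926 to 26883925 per sample after rounding. They are given as normalized counts, scaled by the upper quartile of each sample, and a gene was called when edgeR's quasi-likelihood test gave it a Benjamini-Hochberg adjusted p under 0.05 and its fold change over 2. Of 16756 genes tested, 24.5% were called higher and 22.0% were called lower in VprBP sh, so a called gene is common in this comparison. DCAF1 itself had 688, 893 and 884 counts in Control sh against 681, 488 and 628 in VprBP sh. After scaling it stood at 860.0 ± 89.7 (SD, n = 3) and 577 ± 153 normalized counts. Its log2 fold change was -0.58 ± 0.17 (SE), with an adjusted p of 0.0125 by edgeR, which is under 2-fold. With scaling by library size alone it was -0.37 (adjusted p = 0.0851 by edgeR). The labels name G361, a melanoma line, as the cell line but LD611, a bladder cancer line, as the source. Of 8 melanocyte markers 4 were in the table used, with summed levels of 197.1 to 234.1 normalized counts in Control sh against 241.7 to 305.1 in VprBP sh. MITF had 154 to 170 counts in Control sh against 197 to 312 in VprBP sh, while MLANA and TYRP1 had at most 5 counts in any sample. TYR, DCT, SOX10 and S100B were not among the genes with counts. The 9 of 11 urothelial markers in the table summed to 106013.3 to 117407.8 in Control sh against 24856.3 to 28264.5 in VprBP sh. KRT5 was lower and UPK1B had 0 counts in all 3 VprBP sh samples. Members of this list went both ways: of 8 tested, 2 were called higher (GATA3 and PPARG) and 5 lower, TP63 among them. TP63 had 8715, 7670 and 8806 counts in Control sh against 9, 8 and 13 in VprBP sh, and KRT13 2740, 4436 and 5317 against 9, 3 and 7. Oppositely, GATA3 had 7, 1 and 0 counts in Control sh against 1580, 1334 and 1873 in VprBP sh. PPARG rose from 274 ± 66.0 to 719 ± 24.1 normalized counts, and KRT7 was not called. Endothelial markers (3 of 3) summed to 611.6 to 680.1 and 28.7 to 38.7, fibroblast markers (3 of 5) to 699.2 to 730.7 and 452.1 to 593.5, with LUM at 0 counts in VprBP sh, and leukocyte markers (4 of 8) to 660.7 to 866.3 and 222.2 to 512.3. The leukocyte sum rested on CD14, which was called lower, while CSF1R was called higher at 27.6 ± 6.13 and 60.5 ± 25.6. The mitochondrial share of counts was 1.96% to 1.98% in Control sh against 4.10% to 4.48% in VprBP sh. These differences run with the groups in every sample and touch every result given here, and their part in the results was not tested. In bulk samples, fewer cells of a type and less RNA per cell cannot be told apart.

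CGAS and IRF7 differed most among the 9 genes, in opposite directions. CGAS had at least 1398 counts in each Control sh sample and at most 2 in VprBP sh, whereas IRF7 had at most 9 counts in Control sh and at least 519 in VprBP sh. MAVS was lower in VprBP sh by more than 2-fold. Of the 9 genes, 1 was called higher (IRF7), 2 were called lower (MAVS and CGAS) and 6 were not called, which stand beside the 24.5% and 22.0% of all genes. Without regard to fold, 6 of 9 had an adjusted p under 0.05, beside 76.4% of all genes tested, and the 3 Control sh and 3 VprBP sh values did not overlap for 6 of 9, beside 79.5% of all genes tested. These counts are close to or under the background. All 9 passed the filter on low counts, CGAS through its Control sh values alone and IRF7 through its VprBP sh values alone. The median log2 fold change of the 9 was -0.35, and that of all genes tested was 0.08.

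**Figure D1:**
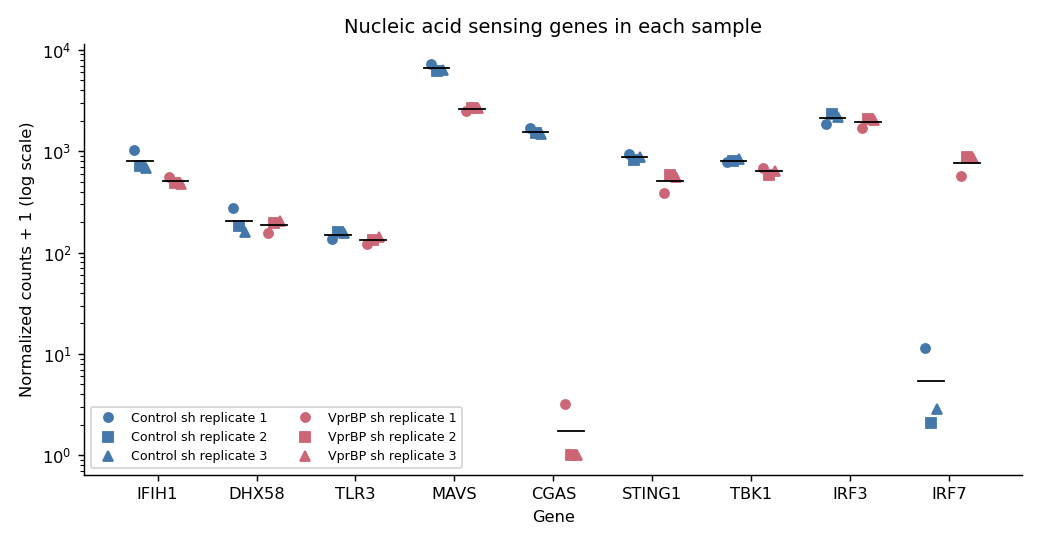
Normalized counts + 1 (log axis) of the 9 genes, with a symbol per replicate, Control sh in blue and VprBP sh in red, and black bars at the group means. CGAS falls from at least 1476 normalized counts in each Control sh sample to at most 2.21 in VprBP sh, IRF7 moves the other way from at most 10.3 to at least 574, and the VprBP sh values of MAVS sit below all its Control sh values, while the groups overlap for DHX58, TLR3 and IRF3.

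Among the RNA sensors, IFIH1 was lower in VprBP sh and DHX58 and TLR3 did not pass the test. IFIH1 (MDA5, ENSG00000115267.9, minus strand of chromosome 2 from 162267074 to 162318684 in hg38, 16 exons), which recognises long double-stranded RNA, had 1022, 710.3 and 689 normalized counts in Control sh replicates 1, 2 and 3 and 559, 489.6 and 476 in VprBP sh. Every VprBP sh sample was below every Control sh sample, and Control sh replicate 1 stood above the other two. The log2 fold change was -0.67 ± 0.16 (SE, adjusted p = 0.00374 by edgeR), which is under 2-fold. DHX58 (LGP2, ENSG00000108771.13, minus strand of chromosome 17 from 42101404 to 42112714, 14 exons) lacks the signalling domains of its relatives. It had 273, 183 and 159 normalized counts in Control sh against 154, 196 and 203 in VprBP sh. The groups overlapped, with a log2 fold change of -0.14 ± 0.22 (adjusted p = 0.559), and without Control sh replicate 1 the estimate turned to 0.11. TLR3 (ENSG00000164342.13, plus strand of chromosome 4 from 186069155 to 186088073, 5 exons) was the least abundant of the RNA sensors. It had 134, 157 and 154 normalized counts in Control sh against 119, 133 and 142 in VprBP sh, which overlap, with a log2 fold change of -0.17 ± 0.16 (adjusted p = 0.329). With scaling by library size alone the estimates for DHX58 and TLR3 changed sign, to 0.07 and 0.04.

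Of 17 other RNA sensing genes tested, 1 was called higher and 6 lower (5.88% and 35.3%, beside 24.5% and 22.0% of all genes), and their median log2 fold change was -0.41 beside 0.08 for all genes. RIG-I, the sensor of RNA with a 5′ triphosphate (listed as DDX58), had 837, 525 and 565 counts in Control sh against 253, 175 and 304 in VprBP sh, with no overlap. It fell by 1.57 on the log2 scale (adjusted p = 0.000246 by edgeR). DDX60L, a helicase of the same family as DDX60, fell from 1333 ± 77.7 to 152 ± 16.7 normalized counts (SD, n = 3), and DDX60, an interferon-induced helicase, from 962, 410 and 558 counts to 113, 158 and 197. NLRX1, a mitochondrial protein described as a brake on MAVS signalling, rose from 341 ± 32.6 to 2165 ± 284, a log2 fold change of 2.67 (adjusted p = 7.18e-08). TICAM1, the adaptor of TLR3, was named after its values were seen and was not called, with 989 ± 216 and 496 ± 65.5 normalized counts and a log2 fold change of -0.99. TLR7 and TLR8 were not among the genes with counts.

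MAVS, through which IFIH1 and RIG-I signal, was the most abundant of the 9 genes in Control sh by normalized counts. MAVS (ENSG00000088888.18, plus strand of chromosome 20 from 3846799 to 3876123, 7 exons) had 7318, 6223 and 6253 normalized counts in Control sh against 2470.4, 2648 and 2661 in VprBP sh. The groups were far apart against a narrow spread, with 6598 ± 624 and 2593 ± 106 (SD, n = 3). The log2 fold change was -1.35 ± 0.09 (SE), with an adjusted p of 7.34e-07 by edgeR.

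On the DNA sensing side, CGAS was nearly without counts in VprBP sh and STING1 was lower. CGAS (ENSG00000164430.17, minus strand of chromosome 6 from 73413515 to 73452297, 5 exons), the enzyme that makes the second messenger cGAMP on binding DNA, had 1482, 1398 and 1573 counts in Control sh against 2, 0 and 0 in VprBP sh. The VprBP sh values lie at or under a floor of 3 counts, which is 2.28 to 3.44 normalized counts depending on the sample. Summed over replicates, 4453 counts in Control sh stood against 2 in VprBP sh, which after scaling is a ratio of 2482 with an exact 95% interval of 687 to 20498 that covers counting error only. Both VprBP sh counts came from replicate 1. The adjusted p was 3.53e-09 by edgeR, and the fitted log2 fold change of -11.02 depends on the prior count used for values near 0 and was -13.65 without VprBP sh replicate 1.

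STING1, the receptor for cGAMP, was detected in every sample. STING1 (ENSG00000184584.13, minus strand of chromosome 5 from 139475533 to 139482935, 8 exons) had 945, 824 and 873 normalized counts in Control sh against 384, 582 and 561 in VprBP sh. Each VprBP sh value was below each Control sh value, and VprBP sh replicate 1 was the lowest. The log2 fold change was -0.79 ± 0.16 (SE, adjusted p = 0.00112 by edgeR), under 2-fold.

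The neighbours of CGAS on chromosome 6, chosen after their values were seen, did not all share its pattern. DDX43, a helicase gene on the opposite strand that overlaps CGAS by 4052 bases, had 258 ± 60.1 normalized counts in Control sh against 0.253 ± 0.438 in VprBP sh. Whether strand was used in the counting is not stated for these files, so reads of CGAS and DDX43 in the shared stretch cannot be told apart. OOEP, whose nearest end lies 18.382 kb away, had 131.9 ± 13.6 normalized counts in Control sh against 0 counts in each VprBP sh sample. On the other side, MTO1 at 9.281 kb had 673 ± 84.6 and 743 ± 43.0 normalized counts, at a log2 fold change of 0.14 (adjusted p = 0.292), and EEF1A1 at 37.011 kb had a log2 fold change of -0.12 (adjusted p = 0.179). The stretch with few counts in VprBP sh thus took in OOEP, DDX43 and CGAS, while MTO1 next to it did not differ past the threshold.

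Of 19 other DNA sensing genes tested, 2 were called higher and 7 lower (10.5% and 36.8%, beside 24.5% and 22.0% of all genes), around a median of -0.09 on the log2 scale. IFI16, a nuclear sensor of DNA, had 4249, 4304 and 5247 counts in Control sh against 0, 0 and 0 in VprBP sh, at least 1663-fold lower against a floor of 3 counts per sample. AIM2, an inflammasome sensor of DNA that lies beside IFI16 on chromosome 1 (IFI16 from 158999968 to 159055155, AIM2 from 159061599 to 159187843), was looked at after its values were seen and had 24, 30 and 33 counts in Control sh against 0 in each VprBP sh sample. SAMHD1, RNASEH2B and TMEM203, which limit nucleic acid ligands or act on STING1, fell as well. SAMHD1, a nucleotide hydrolase, fell from 1887 ± 280.0 to 458 ± 18.9 normalized counts and RNASEH2B, a subunit of the nuclease for RNA-DNA hybrids, from 1106 ± 6.86 to 408 ± 12.0. TMEM203, a protein described as binding STING1, fell by 1.31 on the log2 scale. The 2 genes called higher remove ligands of the pathway and were named after their values were seen. TREX1, a nuclease for cytoplasmic DNA, had 2, 2 and 0 counts in Control sh against 46, 62 and 102 in VprBP sh, and ENPP1, which hydrolyses cGAMP, had 3, 3 and 12 in Control sh against 67, 72 and 82 in VprBP sh.

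TBK1, at which the RNA and DNA routes meet, differed little between the groups. TBK1 (ENSG00000183735.11, plus strand of chromosome 12 from 64452090 to 64502114, 21 exons) had 772, 805 and 828 normalized counts in Control sh against 679, 576 and 634 in VprBP sh. The groups did not overlap, and the log2 fold change was -0.35 ± 0.10 (SE, adjusted p = 0.00998 by edgeR), well under 2-fold. With scaling by library size alone it was -0.14 and the adjusted p was 0.25. Its relative IKBKE, the second kinase that phosphorylates IRF3 and IRF7, fell from 1569 ± 21.8 to 249 ± 44.8 normalized counts, a log2 fold change of -2.65 (adjusted p = 1.07e-07).

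Of 21 other genes of kinases and ubiquitin adaptors tested, 4 were called higher and 6 lower, around a median of 0.37 on the log2 scale. These shares (19.0% and 28.6%, beside 24.5% and 22.0% of all genes) were near the background. TNFAIP3 (A20), a ubiquitin-editing enzyme that damps this signalling, fell from 3188 ± 428 to 74.7 ± 8.18 normalized counts, a log2 fold change of -5.42 (adjusted p = 2.27e-09 by edgeR). OPTN, a ubiquitin receptor that binds TBK1, fell from 3806 ± 531 to 554 ± 31.7, and TRAF3, the ubiquitin ligase that links MAVS to TBK1, from 2298 ± 273 to 548 ± 8.27. The genes called lower included both carriers of the signal (IKBKE, TRAF3) and an inhibitor of it (TNFAIP3).

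The transcription factors IRF3 and IRF7 parted. IRF3 (ENSG00000126456.16, minus strand of chromosome 19 from 49659569 to 49665875, 8 exons), which is made constitutively and activated by phosphorylation, had 1836, 2334 and 2161 normalized counts in Control sh against 1675, 2095 and 2050.5 in VprBP sh. The values overlap, with a log2 fold change of -0.12 ± 0.12 (SE, adjusted p = 0.369 by edgeR), and scaling by library size alone turned the estimate to 0.09. IRF3 overlaps BCL2L12 on the opposite strand by 734 bases, so reads there cannot be told apart, and BCL2L12 had a mean of 1212 normalized counts in Control sh against 1090 in VprBP sh.

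IRF7, the interferon-inducible factor of the pair, was near the floor in Control sh and abundant in VprBP sh. IRF7 (ENSG00000185507.21, minus strand of chromosome 11 from 612553 to 615983, 11 exons) had 9, 1 and 2 counts in Control sh against 519, 849 and 1126 in VprBP sh. Control sh replicate 1 held most of the Control sh counts. Summed over replicates, 12 counts stood against 2494, which after scaling is a ratio of 186 with an exact 95% interval of 107 to 361.4 (counting error only). After scaling, the means were 4.43 ± 5.13 and 767 ± 168 normalized counts (SD, n = 3), and the fitted log2 fold change was 7.47 ± 0.40 with an adjusted p of 1.51e-07 by edgeR. Without Control sh replicate 1 it was 8.88. The genes nearest to IRF7 on each side on chromosome 11, chosen after their values were seen, did not rise with it. PHRF1 at 0.331 kb had 1667 ± 49.7 and 1513 ± 157 normalized counts (adjusted p = 0.205 by edgeR), and on the other side DRD4, at 22.5 ± 5.45 and 1.61 ± 1.66, and DEAF1, at 721 ± 114 and 139.6 ± 9.96, were lower in VprBP sh. Farther off, at 51.815 kb, LMNTD2 rose from 41.6 ± 10.4 to 101 ± 13.6.

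Of 14 other IRF family members and partners tested, 1 was called higher and 4 lower (7.14% and 28.6%, beside 24.5% and 22.0% of all genes), around a median of -0.40 on the log2 scale. The share called lower was near the background. IRF5, which acts downstream of Toll-like receptors, fell from 451 ± 85.1 to 33.2 ± 4.48 normalized counts. IRF1 fell from 3809 ± 555 to 1029.8 ± 183. IRF9, the DNA-binding part of the interferon-activated ISGF3 complex, had 1339, 506 and 632 counts in Control sh against 239, 383 and 452 in VprBP sh, a log2 fold change of -1.41 (adjusted p = 0.00587 by edgeR). Control sh replicate 1 stood above the other two for IRF9, and without it 3 genes of the list were called lower. IRF7 thus rose while IRF1, IRF5 and IRF9 fell. IRF4 and IRF8 were not among the genes with counts.

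**Figure D2:**
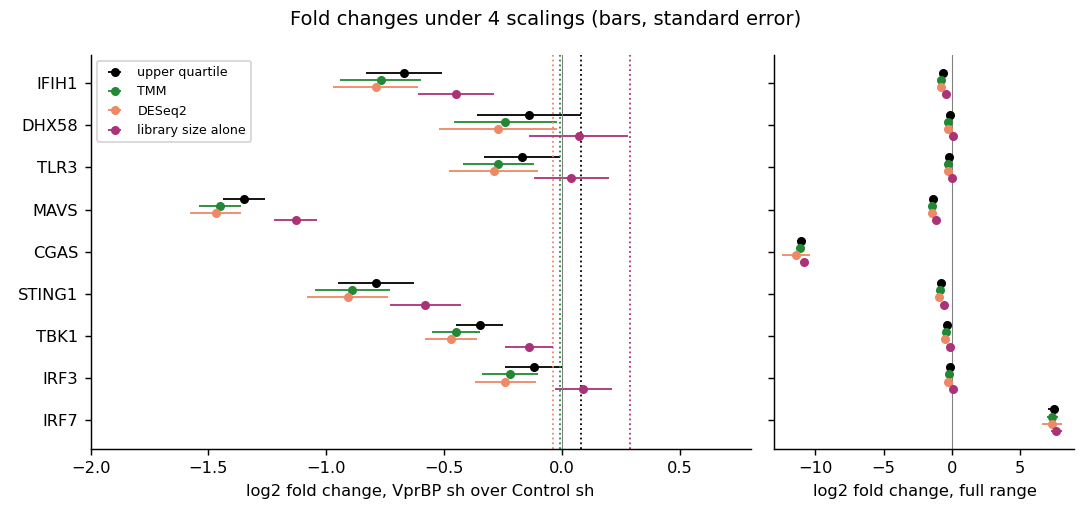
Log2 fold changes (VprBP sh over Control sh) of the 9 genes with standard errors under 4 scalings (colours), on a narrow axis at the left and over the full range at the right, with dotted lines at the median of all genes under each scaling. The estimates for DHX58, TLR3 and IRF3 lie on either side of 0 depending on the scaling, while those of MAVS, CGAS and IRF7 keep their direction, and the whole set shifts with the median, which is 0.08 with the upper quartile and 0.29 with library size alone.

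The scaling moved all fold changes together, because the median of all genes went from -0.04 with DESeq2 and -0.01 with TMM factors to 0.08 with the upper quartile and 0.29 with library size alone. Relative to that median, with the upper quartile, IFIH1 was at -0.75, DHX58 at -0.23, TLR3 at -0.26 and MAVS at -1.43. STING1 was at -0.87, TBK1 at -0.43 and IRF3 at -0.20, with IRF7 at 7.39. Thus 8 of the 9 genes lay below the median gene and IRF7 above it.

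Compared per length, the order of the 9 genes was rearranged between the groups. With counts divided by the summed length of all exons of a gene, MAVS (561 ± 53.0 normalized counts per kb, SD, n = 3) and IRF3 (556 ± 66.7) led in Control sh and overlapped each other. CGAS followed at 374 ± 29.3 per kb, then STING1 at 184 ± 12.7 and IFIH1 at 154 ± 35.7, which overlapped. TBK1 (54.5 ± 1.90) and DHX58 (53.6 ± 15.8) also overlapped, TLR3 came next at 19.8 ± 1.65, and IRF7 was last at 1.69 ± 1.96. With the canonical or the longest transcript as the length, MAVS overlapped CGAS.

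In VprBP sh, IRF3 led at 511 ± 60.9 normalized counts per kb, followed by IRF7 at 294 ± 64.3 and MAVS at 220.3 ± 9.03, which overlapped. STING1 (106 ± 22.7) and IFIH1 (97.3 ± 8.56) overlapped as before, DHX58 (48.2 ± 6.98) and TBK1 (42.8 ± 3.50) overlapped, TLR3 was at 17.5 ± 1.51 and CGAS was last at 0.177 ± 0.306. IRF7 moved from last to place 2 and CGAS from place 3 to last. The length used matters for the other places. With the canonical transcript, IRF3 led in both groups and 5 of 9 genes in Control sh against 4 of 9 in VprBP sh kept their place, while IRF7 and CGAS kept theirs.

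**Figure D3:**
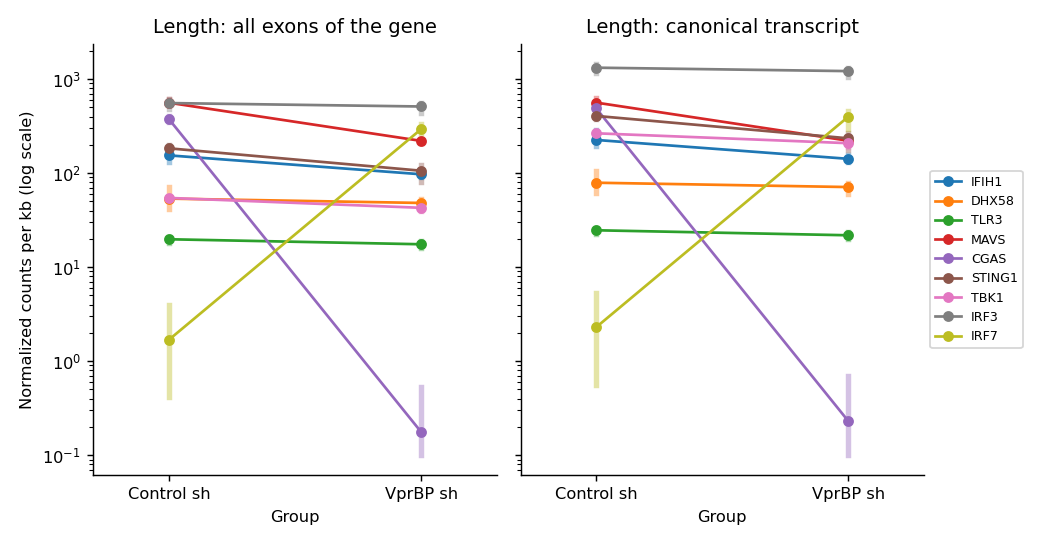
Normalized counts per kb (log axis) of each gene in Control sh and VprBP sh, with the mean as a point and the range of the 3 samples as a pale bar, for the summed length of all exons (left) and of the canonical transcript (right). Bars that reach 0 are drawn down to 0.1. The lines of CGAS and IRF7 cross those of the other genes, from place 3 to last and from last to place 2, while TLR3 stays at 19.8 and 17.5 per kb at the left.

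For each of the 9 genes, the gene of all those tested with the most similar pattern was taken by the smallest root mean square difference of centred log2(normalized counts + 1) over the 6 samples. MAVS was nearest to BCAR3 at 0.0232, IFIH1 to ZNF717 at 0.0445, STING1 to SDC3 at 0.0323 and DHX58 to KMT2D at 0.0572. TLR3 was nearest to TSFM at 0.0178, TBK1 to PPP1R12A at 0.0343 and IRF3 to RAB40C at 0.0197. For these genes the pattern was a common one, with 250 to 2196 genes within a distance of 0.2. CGAS was nearest to AKAP12 at 0.162, the 1 gene within 0.2, and IRF7 to TLE2 at 0.211, with no gene within 0.2. CGAS had 2, 0 and 0 counts in VprBP sh and IRF7 had 9, 1 and 2 in Control sh. Single counts move log2(normalized counts + 1) by more than 0.2 there. Few genes within 0.2 therefore do not show that a change of this size was rare.

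The products and targets of the pathway were read out next. IFNB1, the interferon that IRF3 and IRF7 induce first, and 20 other interferon genes were not among the 21494 genes with counts. Each of those genes summed to at least 10 counts over the 6 samples. The reason that the interferon genes were missing was not tested. The remaining interferon gene, IFNE, had 11, 7 and 4 counts in Control sh against 0, 2 and 3 in VprBP sh and was under the filter on low counts. Of 16 genes of interferon receptors and JAK-STAT signalling, 2 were called higher and 2 lower, around a median of 0.16 on the log2 scale. Both shares were 12.5%, under the 24.5% and 22.0% of all genes. TYK2, a kinase of the type I interferon receptor, rose from 1970.0 ± 17.8 to 9855 ± 1208 normalized counts and USP18, which shuts off that receptor, from 153 ± 22.5 to 632 ± 63.7. The inhibitors SOCS3, which fell from 1614 ± 86.1 to 115 ± 5.97, and SOCS1, from 291 ± 41.3 to 129 ± 2.70, were lower. STAT2, a partner of IRF9 named after its values were seen, was not called, at a log2 fold change of -0.13.

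Among 21 target genes of IRF3 and ISGF3 tested, 3 were called higher and 14 lower (66.7%, beside 22.0% of all genes), and the median log2 fold change was -1.64 beside 0.08. Without Control sh replicate 1, 4 were called higher and 12 lower and the median was -1.33. MX2, an interferon-induced GTPase, fell from 989 ± 221 to 29.4 ± 5.73 normalized counts. IFI6, an interferon-induced membrane protein, had 3209, 1008 and 1211 counts in Control sh against 53, 119 and 171 in VprBP sh. In both genes the groups were apart, and for IFI6 the Control sh values were widely spread, with replicate 1 the highest. BST2 (tetherin), which holds budding virus at the cell surface, moved oppositely, at 43, 16 and 18 counts in Control sh against 2784, 3517 and 4767 in VprBP sh, a log2 fold change of 6.98 (adjusted p = 2.49e-08 by edgeR). ISG20, an RNA exonuclease, rose from 27.2 ± 4.26 to 225 ± 59.8. The third target called higher was CMPK2, a nucleotide kinase named after its values were seen, with 54, 7 and 14 counts in Control sh against 79, 118 and 104 in VprBP sh. Thus 3 targets rose in the samples where IRF7 did, 14 fell and 4 were not called. The last were OAS1, MX1, RSAD2 and IFIT5, named after their values were seen. OAS1 had 1325, 433 and 366 normalized counts in Control sh against 506, 533 and 579 in VprBP sh. MX1 had 2662, 912 and 876 against 649, 1011 and 988, and RSAD2 39.0, 2.15 and 0 against 17.7, 17.5 and 25.8. In OAS1, MX1 and RSAD2, replicate 1 was the highest of Control sh. IFIT5 was lower in each VprBP sh sample, at 364 ± 37.9 and 218 ± 12.0. The chemokines CXCL10 (39, 14 and 18 counts in Control sh) and CXCL11 (47, 25 and 19), chosen after their values were seen, had 0 counts in each VprBP sh sample.

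The response element core shown above was in 12 of 17 target promoters in the table used (70.6%, beside 3.57% of all promoters) and in 4 of 14 of the other RNA sensing genes (28.6%). That count of RNA sensing genes leaves out RIG-I, whose promoter is listed under another symbol and did not hold the core. The targets were listed as genes on which factors that bind this element act. Their high share is thus built into the list and is no result of these data. The core was found in promoters of genes that moved in either direction, namely, of the targets, 8 of 10 called lower, 2 of 3 called higher and 2 of 4 not called. Of the printed sequences, those of DDX60, BST2 and ISG20 share the same 10 bases of core, and DDX60 fell while BST2 and ISG20 rose.

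**Figure D4:**
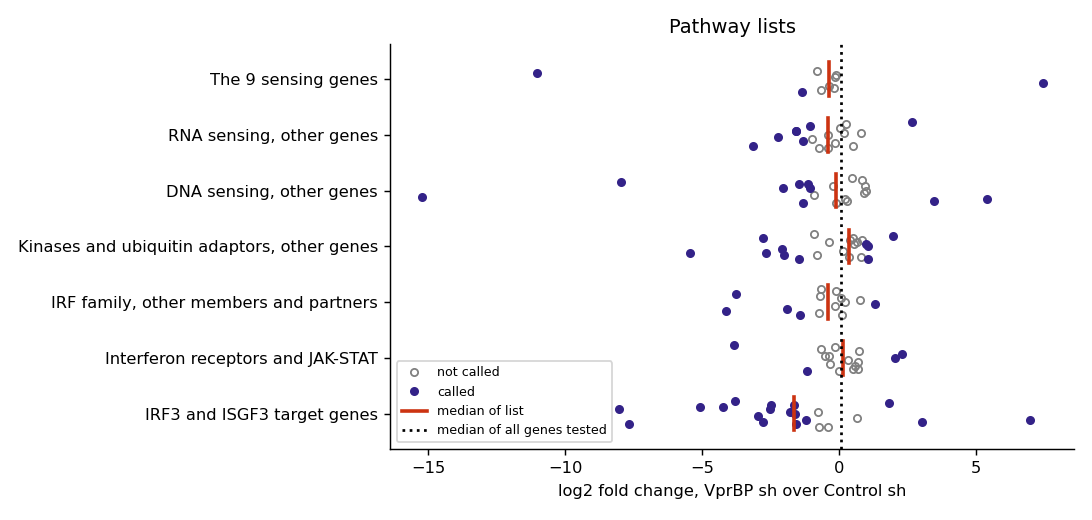
Fitted log2 fold changes (VprBP sh over Control sh, horizontal axis, dependent on the prior count where a group is at or near 0) of single genes in the 9 sensing genes and 6 other lists, with filled points for called genes, open points for genes not called, red bars at the median of a list and a dotted line at the median of all genes tested. The target genes lie mostly to the left with a median of -1.64, beside single genes far to the right such as BST2 at 6.98, and the medians of the other lists lie between -0.41 and 0.37.

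Over the 108 genes of the pathway lists that were tested, 13 were called higher and 39 lower (12.0% and 36.1%, beside 24.5% and 22.0% of all genes), around a median of -0.38 on the log2 scale. The lists were chosen with earlier results of these data known, so these shares describe them and test nothing. With scaling by library size alone, 20 were called higher and 34 lower, and over all 16756 genes 4899 higher and 3248 lower. Without Control sh replicate 1, 13 were called higher and 35 lower, beside 4225 and 3777 of all 17323 genes tested then.

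Control sh replicate 1 stood apart from replicates 2 and 3 in the target genes, a pattern chosen after the values were seen. It was the highest of the 3 Control sh samples for 19 of 21 target genes (90.5%, beside 38.6% of all genes tested). The median log2 difference between replicate 1 and the mean of replicates 2 and 3 was 1.26 for these genes and -0.00872 for all genes. In 13 of 21 targets the difference was above 1, beside 2.81% of all genes. In VprBP sh, replicate 1 was the highest for 1 of 21 targets, with a median difference of -0.233. Among the 9 sensing and signalling genes, replicate 1 was the highest of the Control sh samples for 6, with differences of 0.678 for DHX58, 0.547 for IFIH1 and 2.21 for IRF7, which had 9 counts there, against -0.291 for IRF3 and -0.211 for TLR3. IRF9 among the partners had a difference of 1.43. The cause was not tested.

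**Figure D5:**
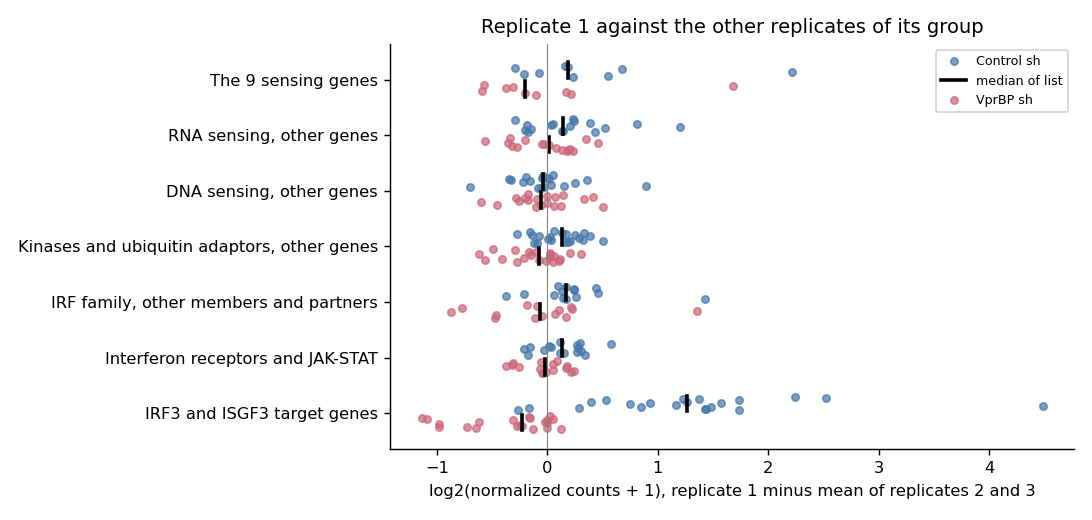
Difference in log2(normalized counts + 1) between replicate 1 and the mean of replicates 2 and 3 for single genes in each list, Control sh in blue and VprBP sh in red, with black bars at the medians. The blue points of the target genes lie to the right with a median of 1.26, while the red points of the same genes have a median of -0.233 and the medians of the other lists lie between -0.20 and 0.19.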

How the data were processed

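Reads (1 x 50 bases, single end) were aligned by the authors to hg38 with STAR 2.6.1d, quantified per gene in Partek Flow with GENCODE 29, and deposited as estimated counts, neither normalized nor pooled (59.4% of values exactly whole, with no tolerance, each gene summing to at least 10). The labels name a SMARTER kit where the methods name a stranded KAPA kit. The 6 samples were grouped by their titles. The tests were written for whole counts, so the estimated counts were rounded, and all 6 samples were fitted in edgeR 4.0.16 (R 4.3.3, upper quartile factors at 0.75, filter at a minimum of 10 counts), in place of Partek's Gene Specific Algorithm. The replicates are not stated to be separate cultures, so p-values measure the spread between these samples, which may be technical. Standard errors were derived from the fitted log2 value and the root of the F statistic.

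The members and gene lists were chosen with earlier results of these data known. The text names the 9 genes, DCAF1, marker genes, IFNB1, and in each list the 4 called genes of largest fold change whose higher group averaged 100 or more normalized counts, besides any gene with at most 3 counts in each sample of one group and an average of 100 or more in the other. The gene of nearest pattern to each of the 9 is named too. Genes outside this rule are marked, except BCL2L12, named for its overlap with IRF3. Some genes that the rule covers are not reported here. The alternatives were TMM factors, library size alone, DESeq2 1.42.0, limma-voom (limma 3.58.1), other filters, a test against a 2-fold change, a replicate block, replicates 2 and 3 summed, and each sample left out, and for the order per kb and the motif other lengths and a longer form. Overlaps and lengths came from GENCODE 44, promoters from RefSeq, and Python 3.11.15 with pandas 2.3.3 and numpy 2.4.6 was used. Intervals and the floor of 3 counts cover counting error only. The fit was tested on simulated data in which few genes changed, as many up as down. That does not test the fit or the scaling where as many genes differ as here.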

Additional observations from a re-analysis of the deposited data

How the results depend on the processing

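Of 133 alternative values for the fold changes of the 9 genes, 127 were counted as keeping their direction and their side of the threshold. The threshold was that on adjusted p, except in the test against a 2-fold change, where the call itself was compared. In that test IFIH1, STING1 and TBK1 were counted as kept because they stayed uncalled. Their adjusted p was not under the threshold there, although it was in the test used in the Results. With library size alone, DHX58 turned to 0.07, TLR3 to 0.04 and IRF3 to 0.09. TBK1 went to -0.14 and DCAF1 to -0.37 in that scaling, neither past the threshold. It also gave 20 pathway genes called higher instead of 13, beside 4899 of all genes instead of 4097. With replicates 2 and 3 summed, TBK1 was at -0.32 and DCAF1 at -0.46, neither past the threshold. Requiring at least 10 counts in every sample left out CGAS and IRF7 by construction, so that 0 members were called higher and 1 lower, and over all genes 2694 were called higher and 1996 lower instead of 4097 and 3681. Against a 2-fold change, 8 pathway genes were called higher and 32 lower, beside 3129 and 3134 of all 16756 genes tested. Leaving out 1 sample gave DHX58 from -0.31 to 0.11, the latter without Control sh replicate 1, and MAVS from -1.39 to -1.27. CGAS ran from -13.65 (without VprBP sh replicate 1) to -10.35 and IRF7 from 7.03 to 8.88 (without Control sh replicate 1). Of the pathway genes 35 to 41 were called lower, beside 3755 to 3985 of all genes tested. Apart from the test against a 2-fold change, which asks another question and gave an adjusted p of 1 for IFIH1, STING1, TBK1 and DCAF1, adjusted p-values ran over the alternatives from 2.62e-05 to 0.0235 for IFIH1, from 3.97e-07 to 0.00725 for STING1, from 7.41e-05 to 0.25 for TBK1 and from 0.000188 to 0.0851 for DCAF1.

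Samples with the same number did not deviate together (correlations of -0.213, -0.0641 and -0.176 over 11371 genes). With 3 samples per group this cannot show whether samples of the same number were handled together. The test used in the Results did not pair them. With a replicate block, 1 member was called higher and 2 lower, with no change of call among the members, and TBK1 was at -0.35 (adjusted p = 0.0281 by edgeR). The block gave 13 pathway genes called higher and 39 lower, beside 4031 and 3655 of all genes tested. With the canonical transcript, 5 and 4 of the 9 genes kept their place in the order per kb in Control sh and VprBP sh. The longer form of the motif was in 0.795% of promoters and in 1 member. Depth limits CGAS in VprBP sh and IRF7 in Control sh, whose values lie near the floor.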
